A study of Homo sapiens with 6 samples.

Results

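Genes that p53 switches on to halt the cell cycle or to limit p53 itself were followed in RPMI 8226, an established human multiple myeloma cell line. Of 10 genes named for this group, 9 had a probe set annotated to them alone, and these 9 are among 18417 genes tested. Each of the 9 had 1 such probe set, so no choice between probe sets was needed, and isoforms of a gene are not separated. The remaining gene, BTG2, which encodes an antiproliferative protein, was not analysed here. The cells received 6 Gy of carbon ions (3 arrays) or 0 Gy (3 arrays), and total RNA was taken 1 day later from cells of both doses. The labels number the samples 1 to 3 within a dose and name no separate cultures. Every p-value thus rests on the spread of these 6 samples, part of which may come from handling alone. The samples were labelled with biotin and measured on 1-colour arrays, and values are the authors' deposited intensities, read as log2 from their range. All samples come from 1 cell line, and p53 in this line is known to be mutant, so the targets are described by their name and not as evidence of p53 activity.

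In normal cells p53 is a transcription factor that is held low by MDM2, a ubiquitin ligase that marks it for destruction, and by MDM4, a relative of MDM2 that masks its activation domain. DNA damage frees p53, which then raises CDKN1A (p21, an inhibitor of cyclin-dependent kinases) and, in a feedback loop, MDM2 and the phosphatase gene PPM1D. Carbon ions deposit energy densely along their track and cause clustered breaks in DNA.

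The median deposited value lay between 5.66 and 5.72 on the irradiated arrays and between 5.64 and 5.67 on the unirradiated arrays. Of 9 markers of plasma cells, the cell type this line derives from, 8 lay above the upper quartile on all 6 arrays. Among the 9, CD38 (-0.42, adjusted p 0.0126) and XBP1 (-0.23, 0.0405) fell and SLAMF7 (0.55, 0.00271) rose in limma, in log2 differences. The marker below the upper quartile was SLAMF7, with values of 5.05 to 5.26 on irradiated arrays and 4.53 to 4.75 on unirradiated arrays. Of the markers of T cells, monocytes and stromal fibroblasts, 0 lay above the upper quartile on all arrays, and 1 of 6, 1 of 6 and 2 of 5 rose. Beside these calls, 6.35% of all genes tested rose and 8.18% fell in limma at an adjusted p under 0.05. The mean of the 6 T cell markers was 5.51 to 5.70 on irradiated arrays and 5.30 to 5.46 on unirradiated arrays, and that of the 6 monocyte markers was 4.70 to 4.77 on irradiated arrays and 4.45 to 4.65 on unirradiated arrays. For the 5 stromal markers it was 5.23 to 5.40 on irradiated arrays and 5.09 to 5.15 on unirradiated arrays. The mean of the 9 plasma cell markers was 10.17 to 10.24 on irradiated arrays and 10.19 to 10.23 on unirradiated arrays, so the doses overlapped. The part that marker changes in these 4 lists play in the results below was not tested. The median log2 difference was 0.07 among the 6139 dimmest genes, 0.05 among the 6139 of middle level and -0.02 among the 6139 brightest.

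MDM4 and TIGAR changed most among the 9 genes, and they moved in opposite directions. MDM4 was 1.54-fold lower after irradiation, while TIGAR was 1.45-fold, MDM2 1.29-fold and PPM1D 1.22-fold higher. CDKN1A, PHLDA3, ZMAT3, CCNG1 and TP53INP1 did not pass. A gene passed when its Benjamini-Hochberg adjusted p in limma, a moderated linear model fitted over all genes, was under 0.05. Thus 3 of 9 rose and 1 fell, beside 6.35% and 8.18% of all genes tested, and 14.5% in either direction. The median log2 difference of the 9 genes was 0.18, and that of all genes 0.04. The groups did not overlap for 5 of the 9 genes, beside 34.7% of all genes. Irradiated values lay above for 4 of these and below for 1, beside 19.0% and 15.7% of all genes.

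The sequences before the starts of the 4 genes that passed are shown because 3 of them rose while 1 fell. Each line gives the 250 bases ahead of the RefSeq gene start in GRCh38.p14, 5′ to 3′ on the plus strand, which is the gene's strand in each case. They are chr1:204516156-204516405, chr12:4320963-4321212, chr12:68807922-68808171 and chr17:60599943-60600192, in the order printed. Capitals mark GC boxes (GGGCGG or its reverse complement CCGCCC) and CCAAT boxes (CCAAT or ATTGG).
MDM4: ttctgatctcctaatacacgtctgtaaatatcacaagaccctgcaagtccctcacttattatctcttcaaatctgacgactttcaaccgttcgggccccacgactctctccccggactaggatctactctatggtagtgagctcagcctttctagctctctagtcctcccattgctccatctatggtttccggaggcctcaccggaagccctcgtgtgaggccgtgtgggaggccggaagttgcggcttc
TIGAR: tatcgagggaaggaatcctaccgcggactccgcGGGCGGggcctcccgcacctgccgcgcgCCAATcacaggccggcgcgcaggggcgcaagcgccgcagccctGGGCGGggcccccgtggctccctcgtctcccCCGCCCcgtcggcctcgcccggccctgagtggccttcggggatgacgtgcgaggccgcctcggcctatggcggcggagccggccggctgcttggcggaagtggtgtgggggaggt
MDM2: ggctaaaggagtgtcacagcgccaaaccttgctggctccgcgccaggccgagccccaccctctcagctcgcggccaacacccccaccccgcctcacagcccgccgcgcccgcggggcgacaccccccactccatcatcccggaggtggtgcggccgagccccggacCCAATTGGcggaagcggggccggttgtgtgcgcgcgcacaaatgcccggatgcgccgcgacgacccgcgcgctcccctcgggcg
PPM1D: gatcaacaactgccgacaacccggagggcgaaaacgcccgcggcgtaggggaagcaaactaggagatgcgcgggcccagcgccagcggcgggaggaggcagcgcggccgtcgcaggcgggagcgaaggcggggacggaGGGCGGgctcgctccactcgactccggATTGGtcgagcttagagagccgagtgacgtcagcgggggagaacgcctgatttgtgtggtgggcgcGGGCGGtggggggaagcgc
The MDM4 window held neither box, and 52.8% of its bases were G or C. The windows of TIGAR (76.8%), MDM2 (74.4%) and PPM1D (70.4%) were richer in G and C, beside a median of 58.0% over 27305 promoters. Among members that did not pass, CDKN1A had 76.4%, ZMAT3 75.2% and CCNG1 54.0%, so the share of G and C did not follow the calls. TIGAR had 3 GC boxes and PPM1D had 2, and MDM2 had 0. MDM2 had a pair of overlapping CCAAT boxes on opposite strands, and TIGAR and PPM1D had 1 CCAAT box each. A GC box was present in 42.3% of all promoters and a CCAAT box in 33.0%. The p53 consensus half-site had 0 matches in the windows of the 7 members with a RefSeq promoter here (CDKN1A, MDM2, MDM4, PPM1D, CCNG1, ZMAT3 and TIGAR), and 5.53% of all promoters held one. The half-site reads the same class of letters on both strands, and overlapping matches were counted separately. These matches are a description of the letters in 250 bases only. Sequence farther upstream or within the genes was not searched, so p53 sites there would not be counted.

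The inhibitors of p53 came apart: MDM2 was higher and MDM4 lower after irradiation. MDM4 had log2 values of 6.84, 6.72 and 6.81 on irradiated arrays 1 to 3, against 7.39, 7.39 and 7.47 on unirradiated arrays 1 to 3. All irradiated values lay below all unirradiated ones, and the gap between the groups was several times the spread within them. The log2 difference was -0.62 ± 0.07 (SE), with a 95% interval from -0.77 to -0.47 and a limma adjusted p of 0.000428. Of all genes tested, 1.30% had a lower difference. In RNA from a whole culture, less RNA per cell and fewer cells that hold it cannot be told apart.

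MDM2 had log2 values of 10.40, 10.66 and 10.23 on irradiated arrays 1 to 3, against 9.94, 10.08 and 10.17 on unirradiated arrays 1 to 3. The groups did not overlap, but irradiated array 3 lay close to unirradiated array 3, and the irradiated values spread widely. The log2 difference was 0.37 ± 0.11 (SE), with a 95% interval from 0.12 to 0.61 and a limma adjusted p of 0.0499. The call passed by a narrow margin. It ended without unirradiated array 1 (adjusted p 0.156), 2 (0.117) or 3 (0.0643) and without irradiated array 1 (0.0880) or 2 (0.123).

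Within each array the log2 value of MDM2 less that of MDM4 was 3.55, 3.94 and 3.42 on irradiated arrays 1 to 3, against 2.55, 2.69 and 2.71 on unirradiated arrays 1 to 3. The size of this quantity depends on the probes, so only its change can be read. It averaged 3.64 ± 0.27 in irradiated samples and 2.65 ± 0.08 in unirradiated samples (SD, n = 3 each), which is a 1.98-fold change of the ratio. The doses could not overlap in this quantity, since they did not for either gene and the genes moved in opposite directions. On the log2 scale the size of this change is the sum of the sizes of both changes given above. It was read after those were seen and adds no separate result.

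PPM1D encodes the phosphatase WIP1, which removes damage-induced phosphates from p53 and from the kinases upstream of it. Its log2 values were 8.44, 8.51 and 8.57 on irradiated arrays 1 to 3, against 8.18, 8.33 and 8.14 on unirradiated arrays 1 to 3. The groups did not overlap, and unirradiated array 2 lay nearest to the irradiated ones. The log2 difference was 0.29 ± 0.08 (SE), with a 95% interval from 0.12 to 0.46 and a limma adjusted p of 0.0308. The call ended without unirradiated array 1 (adjusted p 0.101) or 3 (0.0980) and without irradiated array 2 (0.0679) or 3 (0.0771).

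**Figure D1:**
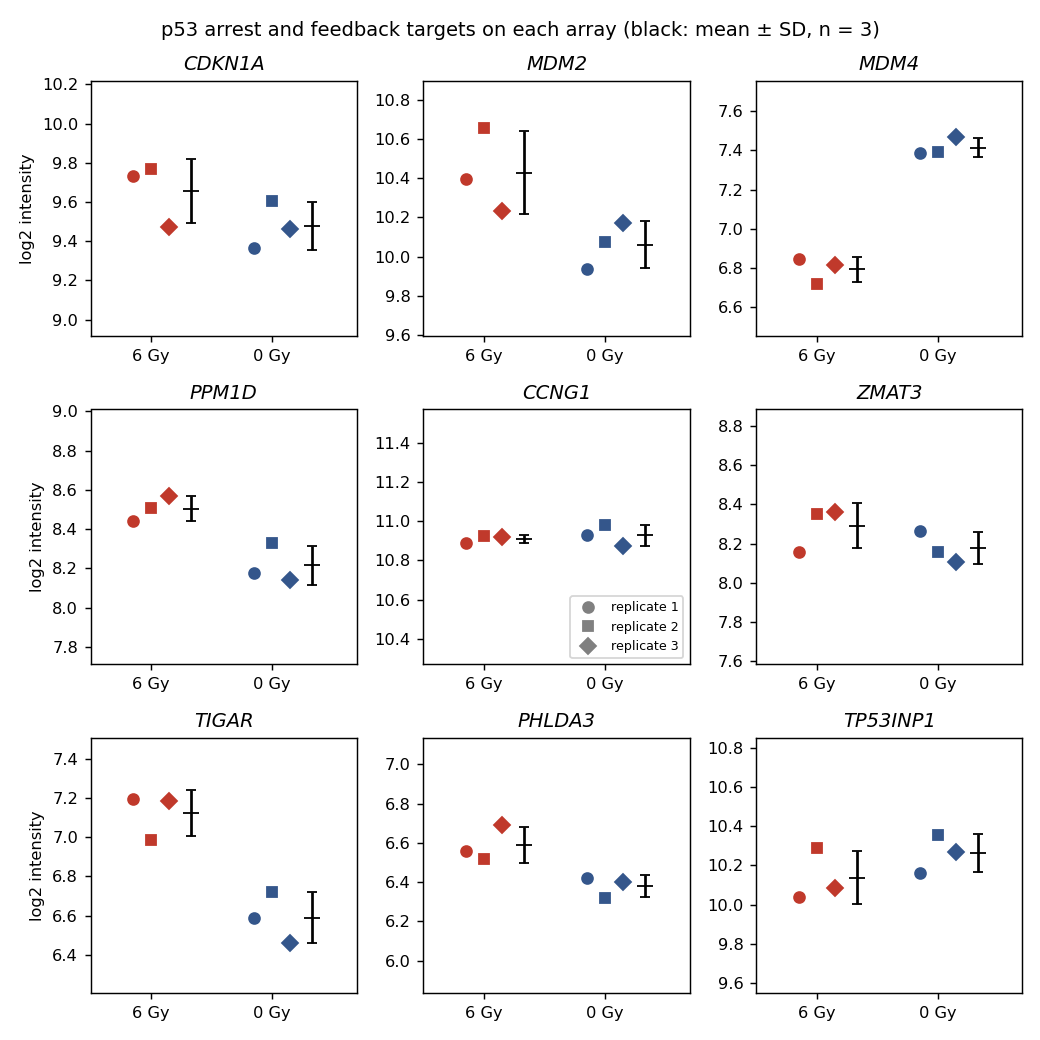
Log2 intensity (vertical axis, each panel spanning the same range of log2 units) of the 9 measured genes on the 3 arrays at 6 Gy (red, left) and the 3 arrays at 0 Gy (blue, right). Marker shapes give the replicate number, and black bars show the mean ± SD of a group. MDM4 (6.72 to 6.84 at 6 Gy against 7.39 to 7.47 at 0 Gy) and TIGAR (6.99 to 7.19 against 6.46 to 6.72) are clearly separated, while CDKN1A, CCNG1, ZMAT3 and TP53INP1 overlap.

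Among the genes that carry out arrest and cell protection, TIGAR stood out, and CDKN1A moved little. TIGAR encodes a phosphatase that lowers fructose-2,6-bisphosphate, which slows glycolysis and favours the pentose phosphate pathway. It had log2 values of 7.19, 6.99 and 7.19 on irradiated arrays 1 to 3, against 6.59, 6.72 and 6.46 on unirradiated arrays 1 to 3. The doses did not overlap, and irradiated array 2 was the lowest of its group while unirradiated array 2 was the highest of its own. The log2 difference was 0.53 ± 0.09 (SE), with a 95% interval from 0.33 to 0.73 and a limma adjusted p of 0.00427. A smaller difference was found for 99.2% of all genes.

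CDKN1A had log2 values of 9.73, 9.77 and 9.47 on irradiated arrays 1 to 3, against 9.36, 9.60 and 9.46 on unirradiated arrays 1 to 3. Irradiated array 3 lay within the unirradiated range, so the groups overlapped. At 0.18 ± 0.10 (SE), the log2 difference of CDKN1A missed the threshold with a limma adjusted p of 0.246. Its 95% interval ran from -0.04 to 0.40, or from 0.975-fold to 1.32-fold. With an array left out, the upper end ran from 1.29-fold to 1.40-fold, and the difference was 0.27 without irradiated array 3 (adjusted p 0.0762).

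PHLDA3 encodes a small protein that competes with the kinase AKT for membrane lipids. It had log2 values of 6.56, 6.52 and 6.69 on irradiated arrays 1 to 3, against 6.42, 6.32 and 6.40 on unirradiated arrays 1 to 3. All irradiated values lay above the unirradiated ones, but the difference of 0.21 ± 0.07 (SE) did not pass (limma adjusted p 0.0862). PHLDA3 lay close to the median of all genes, which was 6.39 to 6.46 on the 6 arrays. The table gives no detection calls, so its distance from background is unknown.

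ZMAT3, whose zinc finger protein binds RNA, had log2 values of 8.16, 8.35 and 8.36 on irradiated arrays 1 to 3, against 8.27, 8.16 and 8.10 on unirradiated arrays 1 to 3. Irradiated array 1 fell among the unirradiated values. The difference was 0.12 ± 0.08 (SE; limma adjusted p 0.374), with a 95% interval from -0.07 to 0.30, and was 0.18 without irradiated array 1. CCNG1 encodes cyclin G1, which recruits a phosphatase to MDM2. It had log2 values of 10.89, 10.93 and 10.92 on irradiated arrays 1 to 3, against 10.93, 10.98 and 10.87 on unirradiated arrays 1 to 3. The irradiated values lay within the unirradiated range. The difference was -0.02 ± 0.07 (SE, limma adjusted p 0.883). On the log2 scale the 95% interval of CCNG1, which spans 0.893-fold to 1.09-fold, was the narrowest among the 9 genes. TP53INP1 encodes a stress protein linked to autophagy and cell death. It had log2 values of 10.04, 10.29 and 10.08 on irradiated arrays 1 to 3, against 10.16, 10.35 and 10.27 on unirradiated arrays 1 to 3. Array 2 was the highest of each dose, and the groups overlapped. The difference was -0.12 ± 0.09 (SE; limma adjusted p 0.369), with a 95% interval from -0.32 to 0.07. It was -0.20 without irradiated array 2, -0.08 without irradiated array 1 and -0.08 without unirradiated array 2.

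**Figure D2:**
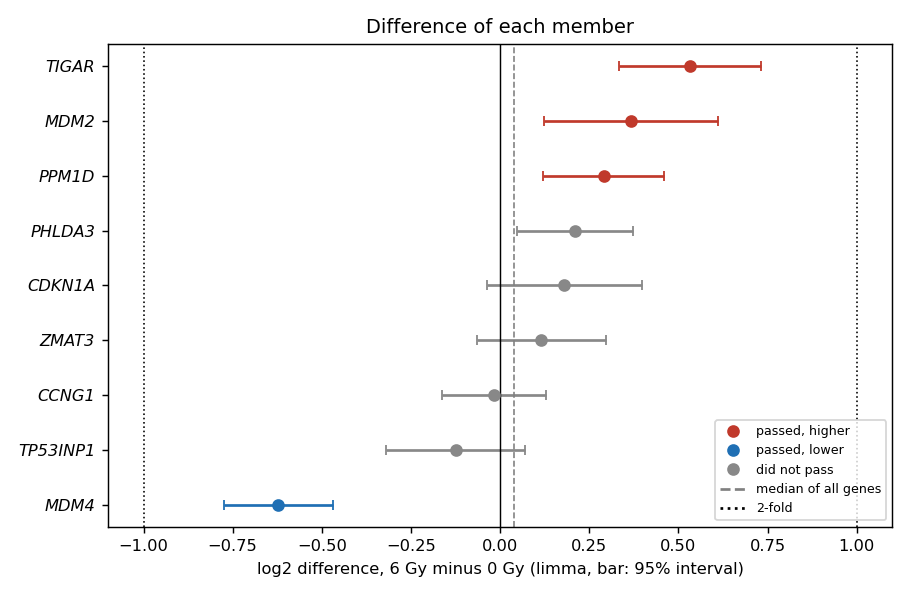
Log2 difference at 6 Gy minus 0 Gy for each gene (points, limma) with its 95% interval (bars). Red and blue points passed in the higher and lower direction, grey points did not pass, the dashed line marks the median of all genes (0.04) and dotted lines mark a 2-fold change. The points run from MDM4 at -0.62 to TIGAR at 0.53, and no interval reaches a 2-fold change.

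The arrays within a dose did not rank the genes alike. Irradiated array 3 had the lowest value of its dose for CDKN1A and MDM2 and the highest for PPM1D, ZMAT3 and PHLDA3. Irradiated array 2 had the highest value for CDKN1A, MDM2, CCNG1 and TP53INP1 and the lowest for MDM4, TIGAR and PHLDA3. Over the 6 arrays, the genes whose values about their own mean lay nearest to those of MDM4, the member with the smallest p, were BRD7, THOC1 and FBXO41. The root mean square distance was 0.04 for BRD7, 0.04 for THOC1 and 0.05 for FBXO41 in log2 units. These genes were picked as the nearest of all 18417, with log2 differences between doses of -0.62, -0.61 and -0.64. Shared regulation was not tested.

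Other p53 targets serve cell death, repair and stress defence. In the test as designed they were called about as often as genes at large (17.5%, beside 14.5% of all genes). Of 43 listed, 40 were measured, of which 4 rose, 3 fell and 33 did not pass. With array medians subtracted, 3 rose and 8 fell. Their median log2 difference was -0.03. SESN2, which restrains growth signalling, fell by 1.98 ± 0.11 (SE) on the log2 scale (limma adjusted p 1.16e-05). PMAIP1, which encodes the pro-apoptotic protein NOXA, fell by 1.12 ± 0.08 (adjusted p 2.67e-05). SESN2 and PMAIP1 are also known as targets of the stress factor ATF4. CSF1, encoding a macrophage growth factor, rose by 0.53 ± 0.08 (adjusted p 0.00176).

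Genes listed as regulators of p53, not all of them upstream of it, had a median log2 difference of -0.07. Of 22 measured (26 listed), 0 were higher and 4 lower. This is 18.2% called, all of them lower, beside 8.18% of all genes called lower and 14.5% called in either direction. With array medians subtracted, without the dimmest genes, or with an intensity trend and robust prior, 6 were lower. Under quantile normalization 3 were lower. KAT5, an acetyltransferase that modifies p53 and the kinase ATM, fell to log2 values of 8.41, 8.40 and 8.27 on irradiated arrays 1 to 3, against 8.91, 8.94 and 9.07 on unirradiated arrays 1 to 3. The doses were well separated for KAT5, with a difference of -0.61 ± 0.08 (SE; limma adjusted p 0.00078). ATM, the kinase that phosphorylates p53 and MDM2 after DNA breaks, fell by 0.37 ± 0.07 (adjusted p 0.00652). CHEK1, a checkpoint kinase, fell by 0.22 ± 0.06 (adjusted p 0.0433), a call that ended without any 1 of the 6 arrays (0.0594 to 0.120). Without any 1 array other than irradiated array 2, 2 regulators were called.

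Cyclins, kinases and pocket proteins that p21 binds or acts through had 4 higher and 1 lower of 14 (35.7% called, beside 14.5% of all genes), with a median log2 difference of 0.10. With array medians subtracted, 3 were higher and 3 lower. CCNE2, a cyclin that drives entry into S phase, rose by 0.42 ± 0.09 (SE; limma adjusted p 0.0110). CCND3, a D-type cyclin, rose by 0.34 ± 0.07 (adjusted p 0.0141), though not without unirradiated array 3 (0.0503). RBL2, a pocket protein of the DREAM repressor complex, fell by 0.47 ± 0.08 (adjusted p 0.00492). PCNA, the sliding clamp that p21 binds, differed by -0.28 ± 0.09 (adjusted p 0.0579), and passed without irradiated array 3 (0.0170). Without 1 of the unirradiated arrays, or without irradiated array 1 or 2, 3 of the 14 were called.

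Cell cycle genes that p21 represses through the DREAM complex had 5 higher and 4 lower of 31 measured (33 listed), with a median log2 difference of -0.06. This is 29.0% called, beside 14.5% of all genes. With array medians subtracted, 4 were higher and 5 lower. Without unirradiated array 1 or 2 or irradiated array 2, and with the replicate block, 2 were higher and 4 lower, and 3 were higher without any other 1 array. CENPE, a kinetochore motor, had log2 values of 6.25, 6.03 and 6.06 on irradiated arrays 1 to 3, against 7.02, 7.37 and 7.28 on unirradiated arrays 1 to 3. It was 2.16-fold lower, and the doses did not overlap (limma adjusted p 0.00015). CENPF, a kinetochore protein, fell by 0.68 ± 0.08 (SE; adjusted p 0.000746). CDC25A, a phosphatase that activates cyclin-dependent kinases, rose by 0.58 ± 0.08 (adjusted p 0.00108).

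The 22 relatives by sequence or name are those of all 10 genes named, BTG2 included. Of these, 3 rose, 2 fell and 17 did not pass (22.7% called, beside 14.5% of all genes), with a median log2 difference of 0.06. Under quantile normalization 5 rose and 2 fell. PHLDA1 had log2 values of 8.18, 8.45 and 8.34 on irradiated arrays 1 to 3, against 7.35, 7.41 and 7.28 on unirradiated arrays 1 to 3. The doses were far apart for PHLDA1, which was 1.97-fold higher (limma adjusted p 9.67e-05). PHLDA2 was 1.67-fold higher (adjusted p 0.00169), whereas PHLDA3 differed by 0.21 and did not pass. Whether the members of a family differ in response was not tested.

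CCNG2, the relative of CCNG1, encodes a cyclin linked to cell cycle exit. It had log2 values of 6.18, 6.19 and 6.39 on irradiated arrays 1 to 3, against 6.90, 7.17 and 6.77 on unirradiated arrays 1 to 3. CCNG2 was 1.62-fold lower, with no overlap between doses (limma adjusted p 0.00274). CDKN1B encodes p27, an inhibitor of cyclin-dependent kinases related to p21. Its log2 values were 8.45, 8.68 and 8.37 on irradiated arrays 1 to 3, against 9.05, 9.23 and 8.93 on unirradiated arrays 1 to 3. CDKN1B was 1.49-fold lower, with no overlap between doses (adjusted p 0.00555).

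**Figure D3:**
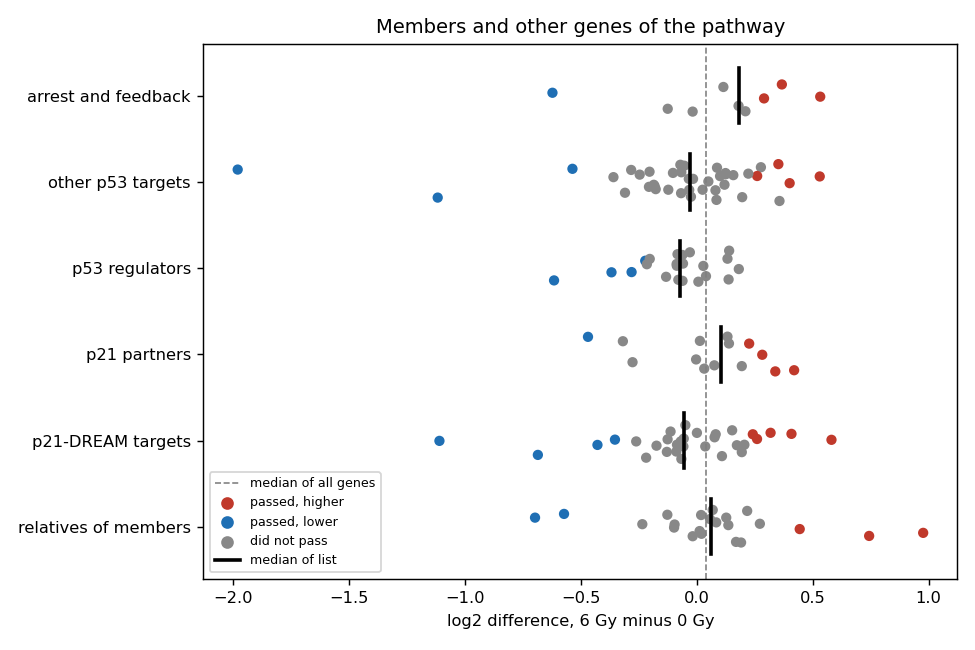
Log2 difference at 6 Gy minus 0 Gy (horizontal axis) of the 9 genes (top row) and of 5 lists of other genes of the pathway, 1 point a gene. Red and blue points passed in the higher and lower direction, grey points did not pass, black bars give list medians and the dashed line the median of all genes. List medians run from -0.07 for regulators of p53 to 0.18 for the 9 genes, and single genes from SESN2 at -1.98 to PHLDA1 at 0.98.

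The calls of MDM4 and TIGAR held under all 13 other settings tried, while those of MDM2 and PPM1D held under 5 and 7 of them. Since each of the 9 genes had 1 probe set, taking the mean of a gene's probe sets left their values unchanged. Leaving out the dimmest genes also kept their values and changed only the other genes in the fit. These settings could hardly end a call and say little about whether it holds. The adjusted p of MDM4 ran from 8.60e-05 to 0.00391 and that of TIGAR from 0.00128 to 0.0233. For PPM1D it ran from 0.00982 to 0.101, and for MDM2 from 0.0155 to 0.156. CDKN1A and PHLDA3 passed under none of the 13, with adjusted p from 0.0762 to 0.512 and from 0.0506 to 0.238. Without unirradiated array 1 or 3, or without irradiated array 2, 2 of the 9 genes were called, MDM4 and TIGAR.

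**Figure D4:**
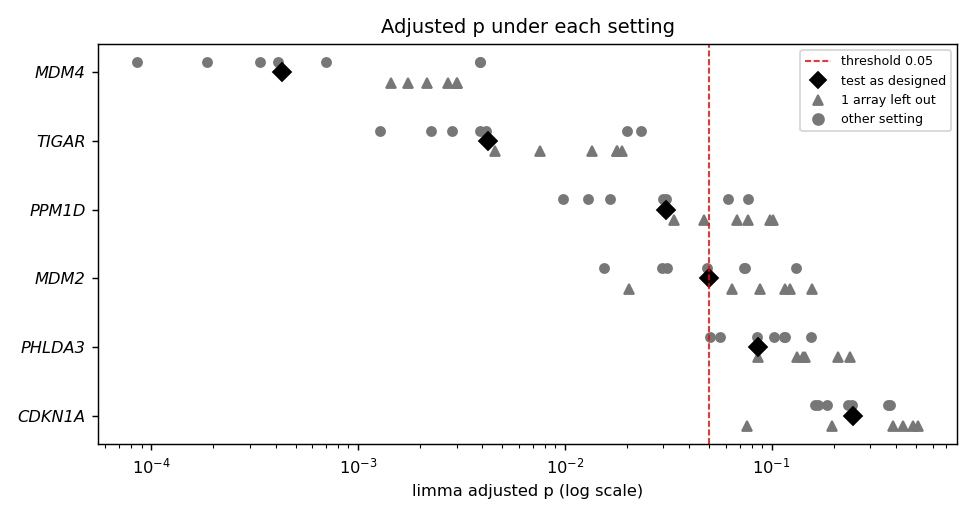
Limma adjusted p (horizontal log axis) of 6 of the genes in the test as designed (black diamonds), with 1 array left out (triangles) and under the other settings (circles). The dashed line marks the threshold of 0.05. All points of MDM4 and TIGAR lie left of the line, those of PPM1D and MDM2 fall on both sides of it, and those of PHLDA3 and CDKN1A lie right of it.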

How the data were processed

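The authors' deposited table of 33297 probe set values on 6 arrays was taken as log2 intensity, since the values run from 1.66 to 14.0. For background correction, normalization and software, details were not given in the sources used here. Nearly equal quartiles between arrays are what scaling to one another would give, so differences are relative to the bulk of transcripts.

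Names come from the platform annotation, which can be old: 19460 had 1 symbol, 1754 several and 12083 none. Entrez IDs matched RefSeq for 19429. The brightest probe set stood for a gene, which gave 18417 genes. A gene of the naming rule is not reported here.

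The 3 irradiated and 3 unirradiated arrays were compared with limma 3.58.1 (R 4.3.3; lmFit and eBayes, two-sided, Benjamini-Hochberg over all genes), with no covariate or filter. The steps were tested on simulated data. Named were all members, the 3 genes of each list with the smallest p, CDKN1B, PCNA and, for the member with the smallest p, the 3 genes nearest in pattern. Members and lists were chosen with earlier results of these data known. Promoters are RefSeq's (GRCh38.p14). Python 3.11.15, pandas 2.3.3 and matplotlib 3.10.9 were used. The number of arrays limits the precision: the median SE was 0.080.

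Alternatives were quantile normalization, subtracted array medians, the dimmest 33.3% of genes left out, the mean of a gene's probe sets, an intensity trend with a robust prior, the replicate block, each array left out, all probe sets, and an adjusted p under 0.01.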

Additional observations from a re-analysis of the deposited data

How the results depend on the processing

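The count of 4 changed members was 2 with an adjusted p under 0.01 and 2 to 3 with an array left out. The labels do not say whether samples of the same number in both doses are paired. The deviations of same-numbered samples correlated at -0.04, 0.10 and -0.11. Sample 2 alone correlated best with its own number. Irradiated sample 1 correlated best with unirradiated sample 3 (0.15), and irradiated sample 3 with unirradiated sample 1 (0.12). With so few samples in a dose, these correlations cannot decide whether samples are paired. With the replicate block 2 members were called, and MDM2 (adjusted p 0.0738) and PPM1D (0.0614) were not. With the block, 2 of the regulators were called. The median of the members was 0.13 to 0.18 with an array left out, the lowest without irradiated replicate 2. Other p53 targets changed in number to 11 with array medians subtracted, 13 without the dimmest genes, 12 with an intensity trend, 4 at an adjusted p under 0.01 and 6 to 9 with an array left out. The share of all genes called under these settings is not given here, so such counts cannot be set beside it. At an adjusted p under 0.01, 2 regulators and 1 p21 partner were called, and with an array left out 2 to 3 and 3 to 5. With an array left out, DREAM targets counted 6 to 8 and relatives 5 to 6. MDM2 also missed with array medians subtracted (0.0740), and with all probe sets tested MDM2 (0.132) and PPM1D (0.0769) missed. The difference of CCNG1, which never passed, ran from -0.0448 to 0.0088 with an array left out, the highest without unirradiated replicate 2. The cause of these changes was not tested, except that leaving out an array leaves fewer samples and testing all probe sets adds tests. Of 26 genes followed by name, CCNG1 alone changed sign under any setting. Signal over background is unknown without detection calls, which limits PHLDA3 and other dim genes.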

Other observations

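The genes that lie next to the 4 changed members on their chromosomes were read after the members' values were seen. The 2 nearest measured protein-coding genes on each side were taken, which gave 16 neighbours. Of these, 1 passed in limma, beside 14.5% of all genes, so neighbours were not called more often than genes at large. MDM4 lies between PIK3C2B, which encodes a lipid kinase and differed by -0.14 (adjusted p 0.208), and LRRN2, which differed by 0.18 (0.178). PPP1R15B, a regulator of translation factor dephosphorylation beyond PIK3C2B, differed by -0.17 (0.138), and NFASC, which encodes a cell adhesion protein, by -0.02 (0.918). TIGAR lies between CCND2, a D-type cyclin gene that differed by 0.14 (0.192), and FGF23, a hormone gene that differed by 0.12 (0.472). Beside MDM2, SLC35E3 differed by -0.06 (0.617) and CPM by 0.11 (0.541). TBX2, a transcription factor gene near PPM1D, was the neighbour that passed, with a log2 difference of 0.22 ± 0.06 (SE; adjusted p 0.0488), while APPBP2, next to PPM1D, differed by 0.19 (0.0848). Whether a member differs in response from its neighbours was not tested.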
